A study of Mus musculus with 16 samples.

Results

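Leukotrienes and prostaglandins are signalling lipids made from arachidonic acid. The RNA of 9 genes that make them was followed here in mouse cells described as sorted neutrophils. The genes were taken by name: Pla2g4a, Alox5, Alox5ap, Lta4h, Ltc4s, Alox15, Ptgs1, Ptgs2 and Hpgds. All 9 were found among the 49585 gene identifiers of the count tables. None of the 9 passed the test between genotypes in either mouse line. Alox5ap, Lta4h, Alox15 and Alox5 were abundant, whereas Hpgds, Ltc4s and Ptgs2 were scarce. Hpgds had the largest fitted difference between genotypes, and Ptgs2 differed most between libraries.

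The cytosolic phospholipase A2 encoded by Pla2g4a frees arachidonic acid from membranes. In neutrophils, 5-lipoxygenase (Alox5) and its membrane partner FLAP (Alox5ap) turn it into leukotriene A4, which leukotriene A4 hydrolase (Lta4h) converts to leukotriene B4, an attractant for other neutrophils. Leukotriene C4 synthase (Ltc4s) instead couples leukotriene A4 to glutathione, a step known from eosinophils and mast cells. The cyclooxygenases (Ptgs1, Ptgs2) start the prostaglandin branch, and the haematopoietic prostaglandin D synthase (Hpgds) makes prostaglandin D2.

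The study asked how the oxygen-sensing hydroxylase PHD2 (gene Egln1) and the transcription factor HIF2α (gene Epas1) act in neutrophils. Cells described as sorted neutrophils came from the bones of C57BL/6 mice aged 8 to 12 weeks. P2KO stands for Vav:cre-PHD2f/f and P2H2KO for Vav:cre-PHD2/HIF2ff/ff, and P2WT and P2H2WT are the controls of each line, labelled wild type without further alleles. Vav drives the Cre recombinase in blood-forming cells at large, so the deletion is not particular to neutrophils. Each group held 4 libraries, of which 2, 3, 3 and 2 had the suffix m in their titles in P2WT, P2KO, P2H2WT and P2H2KO, and the others f. Nothing in the labels says that each library came from a separate mouse, so p values measure the spread between these libraries, which may be technical in part.

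The libraries held 23450746 to 28601284 counts. Neutrophil genes were abundant in all 16 libraries, with S100a9 at 7761 to 21370 and Ly6g at 84.3 to 269.5 CPM, a unit that gives the count of a gene relative to the scaled total count of its library. Genes of other blood cells were abundant too, with the erythroid gene Hba-a1 at 4181 to 9115 CPM and the eosinophil gene Prg2 at 1777 to 3929 CPM. The summed level of 8 erythroid genes exceeded that of 12 neutrophil genes in P2KO 5 (37450 against 32290 CPM) and P2KO 9 (34680 against 31030). Levels given here are therefore those of mixed libraries. Mean Egln1 was not lower in P2KO, at 49.5 ± 6.40 CPM (SD, n = 4) beside 48.7 ± 2.21 in P2WT. Mean Epas1 was not lower in P2H2KO, at 5.65 ± 2.17 CPM beside 3.56 ± 1.02 in P2H2WT. Egln1, also targeted in P2H2KO, overlapped between P2H2KO and P2H2WT. Counts over whole genes do not show which exons are missing, so these values check no label, and P2KO and P2H2KO mean the libraries labelled as deficient in every direction given.

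To compare genes with each other, CPM was divided by the exon length in kilobases. On that scale Alox5ap stood first, at 318 ± 70.5 CPM per kilobase (SD, n = 16). Lta4h followed at 83.7 ± 11.3 and Alox15 at 79.0 ± 22.7, and these neighbours were not separated, because Lta4h was above Alox15 in only 11 of 16 libraries. Alox5 was at 49.3 ± 11.9 and lay under Alox15 in 15 of 16 libraries. Ptgs1 at 14.8 ± 2.18, Pla2g4a at 4.64 ± 0.705 and Hpgds at 0.950 ± 0.275 CPM per kilobase each kept their place in 16 of 16 libraries. Ltc4s at 0.485 ± 0.186 and Ptgs2 at 0.246 ± 0.159 came last, with Ltc4s above Ptgs2 in 13 libraries. Among 26964 genes with at least 1 count, Alox5ap was at percentile 99.6 and Ptgs2 at percentile 50.4 of the level per kilobase. Ptgs1, the constitutive cyclooxygenase, was 60.2 times as high as the inducible Ptgs2 by these means, and 28.2 to 587 times as high in single libraries.

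**Figure D1:**
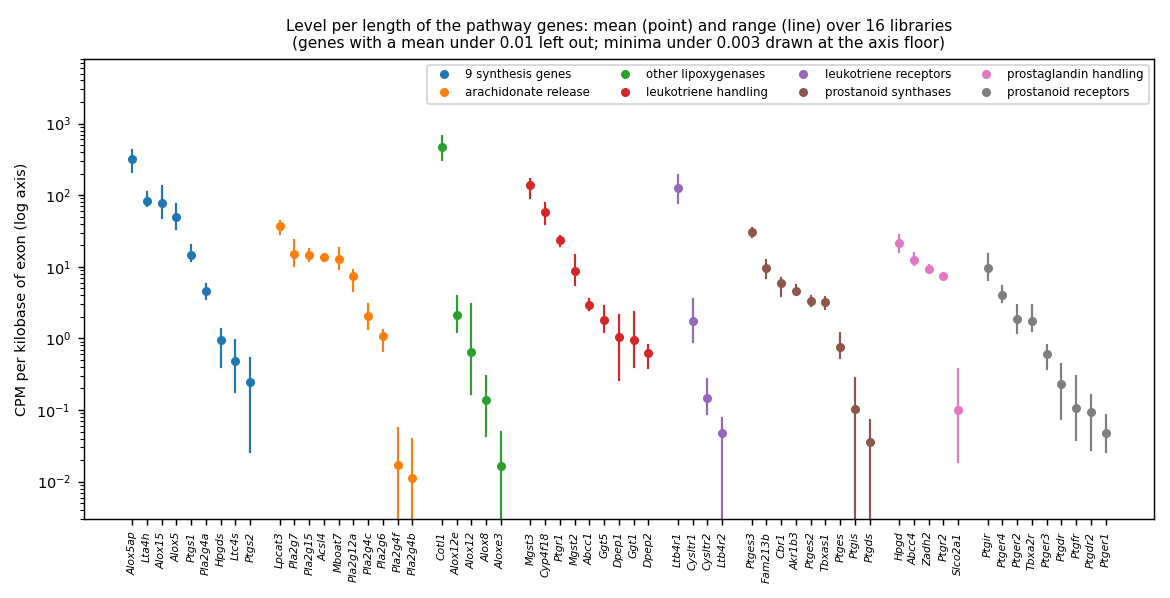
Mean level per kilobase of exon (point, log axis) and range over the 16 libraries (line) for the 9 synthesis genes and the related genes of 7 lists. Alox5ap leads the 9 genes at 318 CPM per kilobase and Ptgs2 has the lowest mean, 0.246.

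The study concerns a hypoxia-inducible factor, whose core DNA motif is ACGTG or GCGTG. RefSeq sequences of the 250 bases before the start (GRCm38.p6) were at hand for 7 of the 9 genes, in 8 windows since Pla2g4a had 2 starts, and both strands were searched for the motif. It occurred in 2 of these 8 windows, at Ptgs2 and at 1 start of Pla2g4a, compared with 38.6% of 32851 such windows of all genes, so the match is common. Ptgs2 is printed because it varied most, and Alox5 and Lta4h because their RNA rose and fell together over the libraries. Capitals mark the motif, and each sequence runs 5′ to 3′ on the strand of the gene (chr1:150099781-150100030 plus, chr6:116461179-116461428 minus and chr10:93453146-93453395 plus).
Ptgs2: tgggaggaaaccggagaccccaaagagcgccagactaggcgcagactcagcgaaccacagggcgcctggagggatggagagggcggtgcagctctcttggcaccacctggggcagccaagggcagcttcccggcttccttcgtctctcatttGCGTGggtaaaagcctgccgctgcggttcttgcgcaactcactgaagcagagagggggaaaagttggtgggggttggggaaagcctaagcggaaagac
Alox5: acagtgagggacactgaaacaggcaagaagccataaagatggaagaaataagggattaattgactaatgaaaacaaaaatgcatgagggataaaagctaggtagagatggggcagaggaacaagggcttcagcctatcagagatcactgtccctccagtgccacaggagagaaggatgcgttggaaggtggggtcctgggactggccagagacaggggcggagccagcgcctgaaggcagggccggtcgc
Lta4h: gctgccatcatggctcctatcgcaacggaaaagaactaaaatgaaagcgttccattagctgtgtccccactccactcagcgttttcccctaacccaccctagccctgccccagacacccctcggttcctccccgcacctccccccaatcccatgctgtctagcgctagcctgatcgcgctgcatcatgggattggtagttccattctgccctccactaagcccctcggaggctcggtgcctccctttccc
The Ptgs2 window holds 1 match, and those of Alox5 and Lta4h hold none, which says only that these letters are not in these windows. In windows of 300 bases that run on past the start, Ptgs2 has 3 matches and Alox5 and Lta4h have 0. Of such windows of all genes, 43.8% hold the motif.

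**Figure D2:**
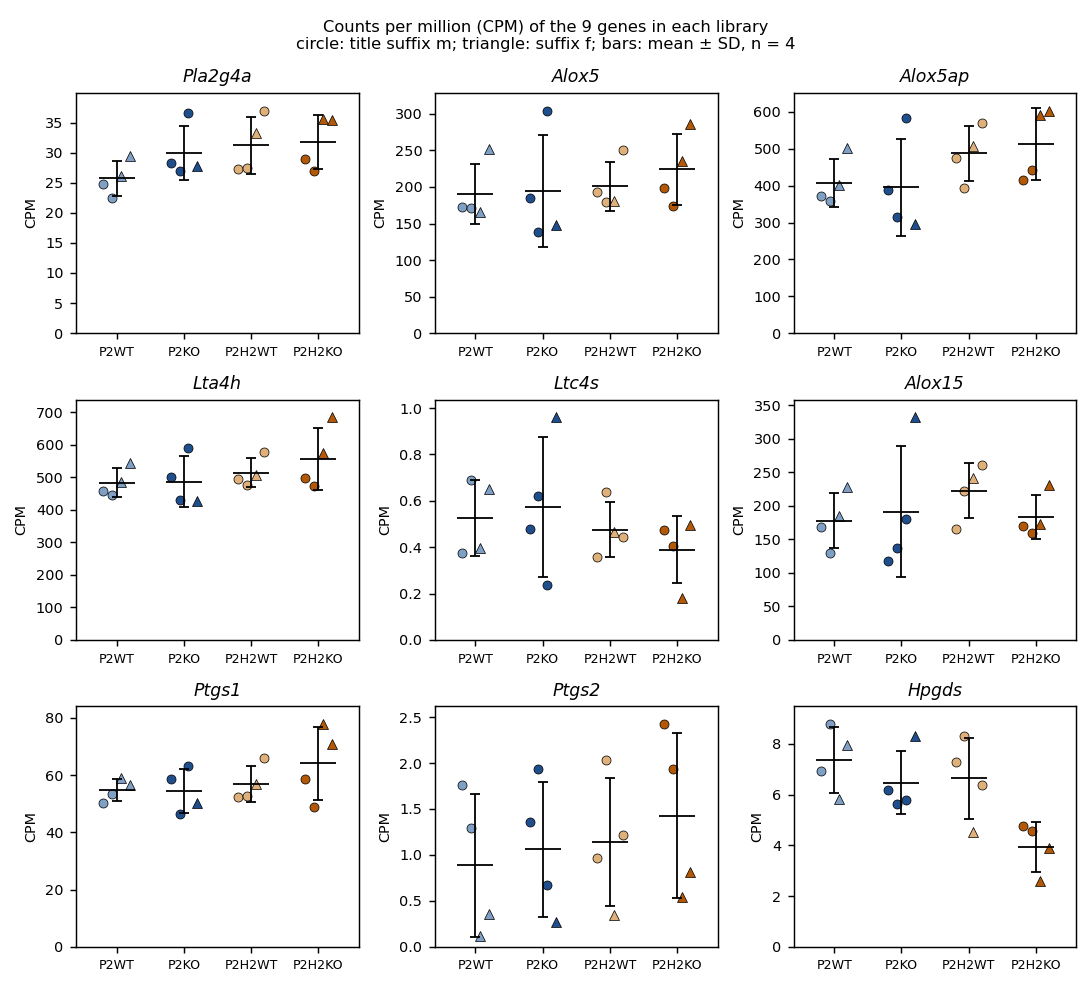
CPM of the 9 genes in each library (circle, title suffix m; triangle, suffix f), with the mean and SD of each group of 4 (bars). The groups overlap for all 9 genes, Hpgds sits lowest in P2H2KO at 2.59 to 4.76 CPM, and the f libraries lie low for Ptgs2.

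Pla2g4a (ENSMUSG00000056220, chromosome 1, 149829618 to 149961290, minus strand; all gene positions are those of GENCODE M21 on GRCm38) opens the pathway. It was at 24.7, 22.5, 26.2 and 29.5 CPM in P2WT 3, 4, 7 and 10, and at 28.3, 27.0, 36.6 and 27.8 in P2KO 1, 5, 6 and 9. Its level was 27.3, 27.4, 33.3 and 37.0 CPM in P2H2WT 13, 14, 16 and 18, and 28.9, 26.9, 35.6 and 35.5 in P2H2KO 11, 12, 15 and 17. The same order of libraries is used for every gene. P2KO 6 stood above the rest of its line, and the groups overlapped in both lines. The log2 fold change was 0.23 (SE 0.12, 95% interval -0.052 to 0.51) in P2KO and 0.023 (SE 0.13, -0.27 to 0.32) in P2H2KO, with an edgeR adjusted p of 1 in both.

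All 9 genes passed the filter on low counts in every comparison. Of these 9, 0 had an adjusted p under 0.05 in P2KO against P2WT, where 0.0437% of 13734 genes did, and 0 at an unadjusted p under 0.05, where 3.49% did. In P2H2KO against P2H2WT again 0 were called at the adjusted threshold (0.0744% of 13435 genes), and 1, Hpgds, was lower at an unadjusted p under 0.05 (1.01% of genes were lower by that rule). Non-overlapping groups were seen for 0 of the 9 genes in P2KO (0.859% of genes higher, 1.39% lower) and 0 in P2H2KO (0.901% higher, 0.811% lower). With DESeq2 in place of edgeR 0 of the 9 were called as well. The median log2 fold change of the 9 was 0.038 in P2KO and 0.076 in P2H2KO, beside 0.020 and 0.0011 over all genes tested. Alox5, Lta4h, Ptgs1, Ptgs2 and Pla2g4a had positive values in both lines, Hpgds negative ones, and Alox5ap, Ltc4s and Alox15 had opposite signs. Other settings turned Ptgs1 (-0.0089 with DESeq2) and Ptgs2 (-0.13 with the title suffix as a covariate) negative in P2KO, and Alox5ap (-0.020) and Pla2g4a (-0.048) negative in P2H2KO with that covariate.

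**Figure D3:**
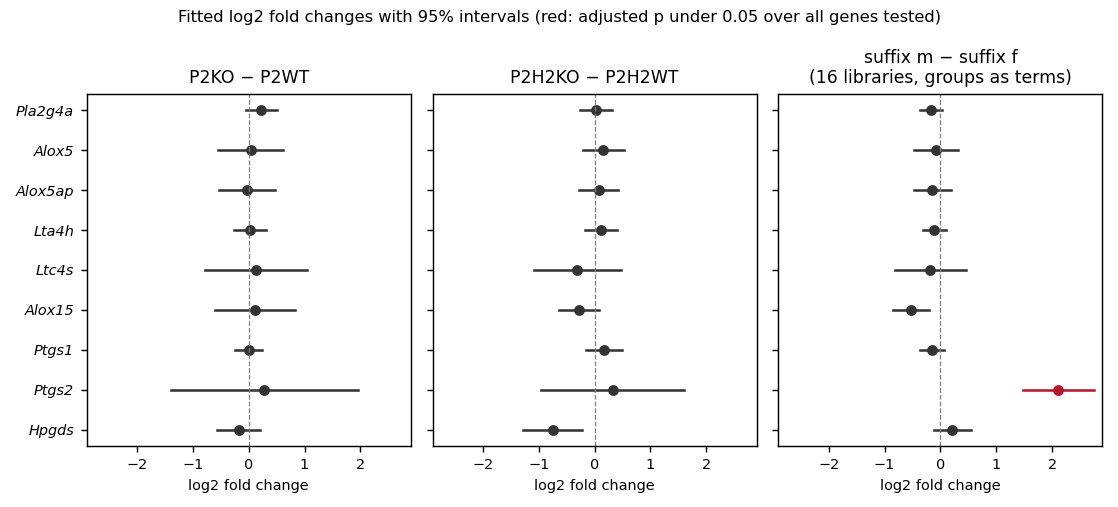
Fitted log2 fold changes (points) with 95% intervals (lines) of the 9 genes in P2KO against P2WT, in P2H2KO against P2H2WT and between title suffixes. Only Ptgs2 between suffixes (2.11) has an adjusted p under 0.05, marked in red, and the Hpgds interval in P2H2KO (-1.28 to -0.22) leaves out 0 without passing the adjusted threshold.

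Alox5 (ENSMUSG00000025701, chromosome 6, 116410077 to 116461178, minus strand) was at 173, 172, 166 and 252 CPM in P2WT and at 185, 138, 305 and 148 in P2KO. In the other line it was at 193, 179, 181 and 251 CPM in P2H2WT and 199, 174, 236 and 287 in P2H2KO. In every group 1 or 2 libraries stood well above the rest, and the groups overlapped. The log2 fold change was 0.038 (SE 0.26, 95% interval -0.55 to 0.62) in P2KO and 0.16 (SE 0.16, -0.22 to 0.53) in P2H2KO, with an edgeR adjusted p of 1 in each. Without P2KO 6 the P2KO value was -0.27 and without P2WT 10 it was 0.21, the ends of the range over the fits that left out 1 library.

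Alox5ap (ENSMUSG00000060063, chromosome 5, 149264767 to 149288153, plus strand) encodes the protein that presents arachidonic acid to 5-lipoxygenase. It was at 371, 358, 402 and 502 CPM in P2WT and at 387, 315, 585 and 296 in P2KO. Its P2H2WT libraries held 477, 394, 509 and 571 CPM, and its P2H2KO libraries 416, 444, 591 and 604. P2KO 6 and P2WT 10 were again the highest of their groups, as they were for Alox5. The log2 fold change was -0.033 (SE 0.22) in P2KO and 0.076 (SE 0.16) in P2H2KO. Gm19719, a gene on the opposite strand, overlaps 189 of its 1420 exon bases, and whether the counting used strand is not given in the sources used here.

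Lta4h (ENSMUSG00000015889, chromosome 10, 93453411 to 93484875, plus strand) varied least, with a highest level 1.60 times the lowest. It was at 458, 445, 485 and 545 CPM in P2WT and 500.2, 429, 591 and 428 in P2KO. It was at 496, 477, 506 and 579 CPM in P2H2WT and 497, 473, 575 and 684 in P2H2KO. The groups overlapped, and the log2 fold changes were 0.023 (SE 0.13, 95% interval -0.26 to 0.31) and 0.12 (SE 0.13, -0.17 to 0.40).

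The 3 genes of the leukotriene B4 route followed each other over the libraries. On the log2 CPM scale Alox5 and Lta4h had a Pearson r of 0.936 over the 16 libraries (0.959 and 0.971 in the 8 libraries of each line), Alox5 and Alox5ap 0.893, and Alox5ap and Lta4h 0.916. These are descriptions over libraries that share the total count to which each gene is scaled. The genes most like Alox5 among 11274 candidates were Itgb2l (r 0.993), Sun2 (0.992) and Msra (0.988). For Alox5ap they were Gnai2 (0.991), Tmbim6 (0.990) and Actr3 (0.986), and for Lta4h Gbe1 (0.981), Tkt (0.979) and Adgrg3 (0.975).

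The summed level of 12 neutrophil genes, among them Ly6g, S100a8 and S100a9, ran beside them. It ranged from 39140 to 61220 CPM in P2WT, 31030 to 72490 in P2KO, 44920 to 68940 in P2H2WT and 42860 to 81170 in P2H2KO. P2WT 10 and P2KO 6 had the highest sums of their groups, as they had for Alox5 and Alox5ap. For Alox5 and this sum, Pearson r was 0.976 and Spearman rho 0.974 (n = 16; permutation p 1e-05 for both, the smallest the permutations can give; adjusted over 108 relations 0.00018 and 0.000216). The r was 0.99 and 0.996 within the lines and 0.977 without the 2 libraries farthest from the median sum. Pearson r was 0.962 for Lta4h, 0.945 for Alox5ap, 0.81 for Ptgs1 and 0.791 for Pla2g4a, with adjusted permutation p values of 0.00018, 0.00018, 0.00168 and 0.00297, and rho was 0.932, 0.918, 0.709 and 0.803. Without the 2 farthest libraries r was 0.958, 0.932, 0.758 and 0.699. Other sums were related to these genes too. Alox5 had an r of 0.969 and a rho of 0.982 with 8 mature neutrophil genes, a list that shares genes with the 12. With 10 basophil and mast cell genes its r was 0.721 (adjusted permutation p 0.0113) and its rho 0.715 (adjusted 0.0184). Within the lines that r was 0.886 and 0.189. Hdc had the highest mean CPM of these 10 genes, so this sum leans on 1 gene. It was at 199.5 to 403.3 CPM in libraries with suffix m, where the sum was 465.6 to 707.5. With suffix f it was at 165.6 to 401 CPM, where the sum was 430 to 739.9. The relation of Alox5 to the other genes of this list was not computed. Pla2g4a had a larger absolute r with the 8 T and NK cell genes (r -0.842, adjusted permutation p 0.00184; rho -0.756, adjusted 0.00872; -0.763 and -0.959 within the lines; -0.767 without the 2 farthest) than with the neutrophil genes. That sum leans on Nkg7 and Il7r, with means of 39.1 and 34 CPM in libraries with suffix m, where the median sum was 108. With suffix f they averaged 37.9 and 31.9 CPM, beside a median sum of 103.2. Ptgs1 had an r of -0.779 with the 8 B cell genes (adjusted permutation p 0.00341; rho -0.809, adjusted 0.00356; -0.639 without the 2 farthest). Alox5ap had an r of 0.742 with the 7 monocyte genes (adjusted permutation p 0.00506; rho 0.756, adjusted 0.00872; 0.585 without the 2 farthest). In bulk libraries fewer neutrophils and less RNA per neutrophil cannot be told apart, and the part of these cell types in the levels was not tested.

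Ltc4s (ENSMUSG00000020377, chromosome 11, 50236461 to 50238616, minus strand) had 5 to 25 counts in a library. It was at 0.376, 0.688, 0.395 and 0.649 CPM in P2WT and 0.478, 0.622, 0.237 and 0.960 in P2KO. The values were 0.358, 0.638, 0.464 and 0.444 CPM in P2H2WT and 0.476, 0.403, 0.180 and 0.496 in P2H2KO. All groups overlapped at this low level. The log2 fold changes were 0.13 (SE 0.41, 95% interval -0.78 to 1.05) and -0.31 (SE 0.35, -1.08 to 0.47), so a wide span of changes lies inside the intervals. Gm26542 on the opposite strand overlaps 268 of its 1014 exon bases.

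Alox15 (ENSMUSG00000018924, chromosome 11, 70344152 to 70352031, minus strand) encodes the 12/15-lipoxygenase, known in the mouse from eosinophils and resident macrophages. It was at 168, 130.1, 185 and 229 CPM in P2WT and 117, 136, 180.1 and 332 in P2KO. It was at 166, 222, 241 and 261 CPM in P2H2WT and 169.7, 159.7, 173 and 231 in P2H2KO. P2KO 9 was the highest of the 16 libraries, and the groups overlapped. The log2 fold change was 0.12 (SE 0.32, 95% interval -0.60 to 0.83) in P2KO, -0.29 without P2KO 9, and -0.28 (SE 0.16, -0.63 to 0.079) in P2H2KO, with an edgeR adjusted p of 1 in both lines.

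Eosinophil genes ran beside Alox15. The summed level of 9 of them was 3440 to 4991 CPM in P2WT, 3050 to 6694 in P2KO, 4734 to 5705 in P2H2WT and 3806 to 5943 in P2H2KO, and none of the 9 was at 0 in all libraries. The highest sum, 6694, was that of P2KO 9. This library also had the highest sums of 9 megakaryocyte genes (203.5 CPM) and 8 B cell genes (673.2 CPM). For Alox15 and the sum, Pearson r was 0.816 (permutation p 0.00012, adjusted 0.00162) and Spearman rho 0.753 (permutation p 0.00129, adjusted 0.00995) over 16 libraries. The r was 0.886 and 0.63 within the lines and 0.73 without the 2 farthest libraries. With the megakaryocyte sum Alox15 had an r of 0.934 in the P2 line and -0.213 in the P2H2 line. Over 16 libraries that r was 0.485 (adjusted permutation p 0.126). The genes most like Alox15 were Siglecf (r 0.922; 0.949 and 0.825 in the lines), Ear2 (0.921) and Il5ra (0.916), all 3 in the eosinophil list. Alox15 and all 9 eosinophil genes had lower fitted levels in the libraries with suffix m, so r includes that difference. It was not computed within each suffix. The part of eosinophils in the Alox15 level was not tested.

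**Figure D4:**
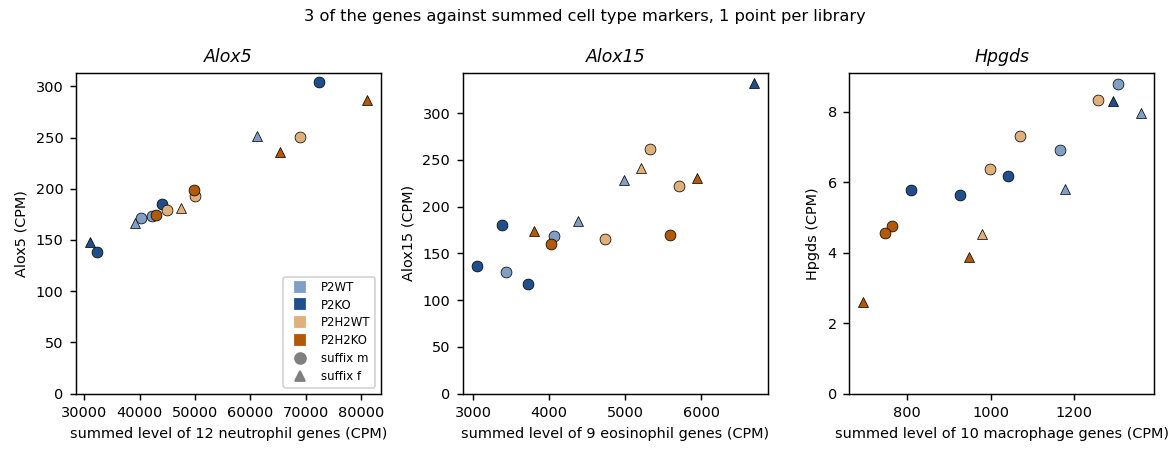
CPM of Alox5, Alox15 and Hpgds (vertical axes) against the summed CPM of 12 neutrophil, 9 eosinophil and 10 macrophage genes (horizontal axes), 1 point per library. Pearson r on the log2 scale, over all groups together, was 0.976, 0.816 and 0.837.

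Ptgs1 (ENSMUSG00000047250, chromosome 2, 36230426 to 36252272, plus strand) was at 50.2, 53.5, 59.1 and 56.6 CPM in P2WT and 58.6, 46.3, 63.2 and 50.1 in P2KO. It was at 52.2, 52.8, 56.9 and 65.8 CPM in P2H2WT and 58.5, 48.9, 77.8 and 71.0 in P2H2KO. Its levels lay close together in P2WT and were spread most in P2H2KO, with overlap in both lines. The log2 fold changes were 0.0033 (SE 0.11, 95% interval -0.24 to 0.25) and 0.17 (SE 0.14, -0.15 to 0.49). Its closest genes were Palm (r 0.926), Cbx8 (0.924) and Tmem159 (0.922), and those of Pla2g4a were Pigx (0.911), Cybc1 (0.906) and Ubash3b (0.905). Gm43621 on the opposite strand overlaps 148 of the 3884 exon bases of Ptgs1.

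Ptgs2 (ENSMUSG00000032487, chromosome 1, 150100031 to 150108227, plus strand) encodes the cyclooxygenase that many cells switch on when they are stimulated, and it lies 138740 bases from Pla2g4a. It had 3 to 56 counts in a library. It was at 1.77, 1.29, 0.119 and 0.361 CPM in P2WT and 1.36, 1.93, 0.672 and 0.269 in P2KO. It was at 0.966, 2.03, 0.348 and 1.21 CPM in P2H2WT and 2.42, 1.93, 0.539 and 0.812 in P2H2KO. High and low libraries were found in every group, a 20.4-fold range over all 16. The log2 fold changes were 0.28 (SE 0.74, 95% interval -1.40 to 1.96) in P2KO and 0.32 (SE 0.57, -0.95 to 1.60) in P2H2KO. With the title suffix as a covariate the P2KO value was -0.13 and the P2H2KO value 0.71, and neither passed the test.

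The suffixes divided Ptgs2 in both lines. In the P2 line the 5 libraries with suffix m were at 0.672 to 1.93 CPM and the 3 with f at 0.119 to 0.361. In the P2H2 line the 5 m libraries were at 0.966 to 2.42 CPM and the 3 f libraries at 0.348 to 0.812. So 5 of 5 m libraries lay above each f library within a line, and over both lines 9 of the 10 m libraries lay above all 6 f libraries. The labels do not say what the letters mean. The Y-linked gene Uty had 0 counts in the 6 f libraries and 17.7 to 22.3 CPM in the 10 m libraries. By this gene, m goes with male and f with female cells. Uty was also among the 3 genes most like Ptgs2 (r 0.839), after Hnrnph2 (0.860) and Cdc34 (0.844).

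A comparison of m with f libraries, with the 4 groups as terms, was added after the Ptgs2 values had been seen. Ptgs2 was at 1.56 ± 0.544 CPM (SD, n = 10) with suffix m and 0.408 ± 0.241 (n = 6) with f. The log2 fold change was 2.11 (SE 0.30, 95% interval 1.47 to 2.75), with an edgeR adjusted p of 0.00564 over 14080 genes. It was 1 of 9 genes called, where 0.163% of all genes were, and 2 of the 9 had an unadjusted p under 0.05, where 17.5% did. Over all groups, m and f values were apart for 0.107% of genes (higher in m) and 0.142% (lower), and for 0 of the 9. The 16 fits that each left out 1 library gave 1.95 to 2.26, called each time. Fitted on each line alone it was 2.50 and 1.80 with edgeR adjusted p of 0.242 and 0.0933. In the P2 line the 3 f libraries have the highest title numbers, and in the P2H2 line only P2H2WT 18 among the m libraries has a higher number than an f library. What the numbers mean is not in the labels, and with the number as a covariate the value was 2.03 (edgeR adjusted p 0.196).

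Immediate-early genes, which stimulation or handling of cells can switch on, ran beside Ptgs2. The list of 10, written after Ptgs2 was seen, had a summed level of 575 to 813 CPM in the m libraries and 395 to 677 in the f libraries. Of the 10 genes 6 were higher in m at an unadjusted p under 0.05, where 9% of all genes were, and 0 passed the adjusted threshold. For Jun the fitted log2 difference was 1.13 (edgeR adjusted p 0.0608) and for Zfp36 it was 0.33 (adjusted p 0.0827). Because m and f differ in Ptgs2, its relation to the summed level was computed within each suffix. Pearson r was 0.748 over the 10 m libraries (permutation p 0.0121) and rho 0.758 (p 0.0146), and over the 6 f libraries r was 0.516 (exact permutation p 0.276) and rho 0.771 (p 0.103). The part of handling in the Ptgs2 level was not tested.

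**Figure D5:**
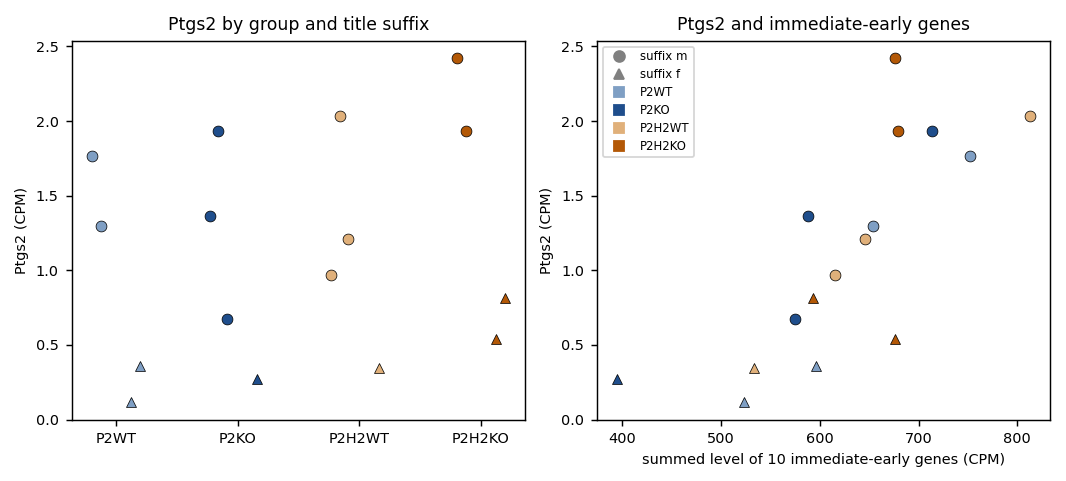
Ptgs2 CPM by group and title suffix (left; circle m, triangle f) and against the summed CPM of 10 immediate-early genes (right), 1 point per library. In each line the m libraries sit above the f libraries, from 0.672 to 2.42 against 0.119 to 0.812 CPM.

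Alox15 went the other way, at 117 to 261 CPM in the m libraries and 173 to 332 in the f libraries. Its log2 fold change was -0.53 (SE 0.15, unadjusted p 0.00355), where 8.47% of genes were lower in m at an unadjusted p under 0.05, and its edgeR adjusted p was 0.127 (0.037 with DESeq2). With the title number as a covariate it was -0.092. Of the 9 eosinophil genes 8 were lower in m at an unadjusted p under 0.05 and 0 passed the adjusted threshold, with sums of 3050 to 5705 CPM in m and 3806 to 6694 in f.

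Hpgds (ENSMUSG00000029919, chromosome 6, 65117293 to 65144908, minus strand) had 72 to 221 counts in a library. It was at 6.91, 8.78, 5.81 and 7.97 CPM in P2WT and 6.18, 5.63, 5.77 and 8.29 in P2KO. In the other line it was at 7.30, 8.33, 4.53 and 6.38 CPM in P2H2WT and 4.76, 4.55, 2.59 and 3.88 in P2H2KO. The P2H2KO libraries were the lowest as a group, but P2H2WT 16 lay below P2H2KO 11 and 12, so the groups overlapped. Group means were 3.95 ± 0.981 CPM (SD, n = 4) in P2H2KO and 6.64 ± 1.61 in P2H2WT.

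The log2 fold change of Hpgds was -0.75 in P2H2KO (SE 0.24, 95% interval -1.28 to -0.22, 0.594-fold), with an unadjusted p of 0.0107 and an edgeR adjusted p of 1. It stood at rank 112 of 13435 genes by p. Fits that each omitted 1 library of the line gave -0.90 to -0.59. The other settings, among them the suffix as a covariate, gave -0.76 to -0.60. In both groups of the line the lowest library had suffix f, and f libraries were a larger part of P2H2KO than of P2H2WT. In P2KO the value was -0.18 (SE 0.17, 95% interval -0.56 to 0.20). The difference between the lines, P2KO effect minus P2H2KO effect, was 0.57 (SE 0.30, 95% interval -0.075 to 1.21, edgeR adjusted p 0.999), so the lines were not shown to differ.

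Macrophage genes ran beside Hpgds. The summed level of 10 of them was 695 to 947 CPM in P2H2KO and 979 to 1256 in P2H2WT, without overlap. Taken singly, C1qc, Siglec1 and Cd163 did not overlap between these groups. Adgre1, C1qa, C1qb, Vcam1, Mrc1, Mertk and Axl did. In P2KO it was 808 to 1293 CPM and in P2WT 1165 to 1359. All 10 were lower in P2H2KO at an unadjusted p under 0.05, where 1.01% of all genes were, and 0 passed the adjusted threshold. Siglec1 had a fitted log2 difference of -0.71 at an edgeR adjusted p of 0.779, the lowest of the list. The median log2 difference of the 10 was -0.446. For Hpgds and the sum, Pearson r was 0.837 (permutation p 4e-05, adjusted 0.000617) and Spearman rho 0.871 (permutation p 8e-05, adjusted 0.00123) over 16 libraries, with r of 0.815 and 0.82 within the lines and 0.768 without the 2 farthest libraries. The genes most like Hpgds were Slco2b1 (r 0.946), Maf (0.927) and Gpd1 (0.913). Hpgds and the sum were both lower on average in P2H2KO than in P2H2WT, and these r values include that difference between groups. The relation within single groups was not computed. The part of macrophages in the Hpgds level was not tested.

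The difference of the effects between the lines was called for 0 of the 9 genes (0% of 14080 genes), and 0 had an unadjusted p under 0.05, where 1.51% did. The median contrast of the 9 was -0.049, beside 0.0012 over all genes. The controls of the lines were compared as a gauge: 0 of the 9 genes differed between P2WT and P2H2WT at the adjusted threshold, where 0.227% of genes did, and 0 at an unadjusted p under 0.05, where 10% did. The controls were apart in 0 of the 9 genes, beside 5.18% of genes higher in P2WT and 2.59% lower. Pla2g4a was lower in P2WT by a log2 value of -0.28 (SE 0.13, unadjusted p 0.0525, edgeR adjusted p 0.504).

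The other genes of the pathway were taken as 7 lists of 55 genes, of which 11 in the P2 line and 13 in the P2H2 line were too low to be tested. In P2KO 0 of 44 tested genes were called, and 1 had an unadjusted p under 0.05 (2.27%, beside 3.49% of all genes). This was Ptger3, a prostaglandin E2 receptor, whose fitted log2 difference was 0.44 (SE 0.15) with an edgeR adjusted p of 1. In P2H2KO 0 of 42 were called, 2 were higher and 1 was lower at an unadjusted p under 0.05, which is 7.14% beside 2.63% of all genes. In the difference of the effects 0 of 44 were called, and 1 had an unadjusted p under 0.05 (2.27%, beside 1.51% of all genes), Ptger3 at 0.64 (SE 0.28, edgeR adjusted p 0.999).

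The 2 with a positive value at that threshold in P2H2KO were Ggt1 and Cysltr1, and neither passed adjustment. Ggt1, whose product trims leukotriene C4, was at 2.08, 2.11, 2.28 and 2.42 CPM in P2H2WT and at 2.51, 4.07, 6.43 and 4.69 in P2H2KO. The groups did not overlap, and the log2 fold change was 0.99 (SE 0.25, unadjusted p 0.00335, edgeR adjusted p 0.817). Cysltr1, a receptor for the cysteinyl leukotrienes, was at 7.23, 5.70, 9.60 and 8.93 CPM in P2H2WT and 8.18, 11.04, 18.3 and 11.2 in P2H2KO, with overlap and a fitted log2 difference of 0.63 (SE 0.25) at an edgeR adjusted p of 1. P2H2KO 15 was the highest library for both.

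Fam213b, which encodes a prostamide and prostaglandin F synthase, was at 12.6, 11.7, 10.5 and 10.6 CPM in P2H2WT and 8.22, 7.98, 8.01 and 8.21 in P2H2KO. The groups did not overlap, and the log2 fold change was -0.49 (SE 0.091, unadjusted p 0.000411, edgeR adjusted p 0.32). In P2KO the value was -0.28 (SE 0.13) at an edgeR adjusted p of 1. Mmel1 on the opposite strand overlaps 25 of its 1027 exon bases.

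The 3 genes with the highest CPM in each list are described here on the scale corrected for exon length, as CPM per kilobase (mean ± SD, n = 16). Cotl1, whose product binds 5-lipoxygenase, was at 478 ± 112, before Alox12e at 2.12 ± 0.654 and Alox12 at 0.644 ± 0.676. Ltb4r1, the high-affinity receptor for leukotriene B4, was at 127 ± 30.5 CPM per kilobase, above Cysltr1 at 1.74 ± 0.626 and Cysltr2 at 0.148 ± 0.0509. Oxgr1 had 0 counts in all 16 libraries. Neither Ltb4r1 nor Cotl1 passed the test, with log2 fold changes of -0.049 and -0.057 in P2KO and 0.11 and 0.084 in P2H2KO.

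In the list named for release and return of arachidonate, the acyltransferase Lpcat3 was at 37.1 ± 3.72 CPM per kilobase. The ligase Acsl4 was at 13.6 ± 1.03 and Mboat7 at 12.97 ± 3.13. Per length the phospholipases Pla2g7 (15.3 ± 3.75) and Pla2g15 (14.5 ± 1.59) had higher means than Acsl4 and Mboat7. Being listed does not mean that each enzyme frees arachidonate. In leukotriene handling Mgst3 was at 139 ± 23.2 CPM per kilobase, Cyp4f18, which oxidises leukotriene B4, at 58.6 ± 12.2 and Ptgr1 at 23.98 ± 1.78. Among the prostanoid synthases Ptges3 was at 30.3 ± 1.91 CPM per kilobase, Akr1b3 at 4.57 ± 0.481 and the thromboxane synthase Tbxas1 at 3.22 ± 0.414, and the means of Fam213b (9.50 ± 1.60) and Cbr1 (5.92 ± 0.975) lay between those of Ptges3 and Akr1b3.

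In prostaglandin transport and breakdown Hpgd, the dehydrogenase that inactivates prostaglandins, was at 21.8 ± 3.42 CPM per kilobase, the transporter Abcc4 at 12.3 ± 1.42 and Ptgr2 at 7.54 ± 0.375, with Zadh2 above Ptgr2 at 9.46 ± 0.661. The receptor for prostacyclin, Ptgir, was at 9.70 ± 2.98 CPM per kilobase, and those for prostaglandin E2, Ptger4 and Ptger2, were at 4.09 ± 0.533 and 1.86 ± 0.519. Pla2g7, Pla2g15, Cbr1 and Zadh2 were chosen after their values were seen, since their levels per length exceed those of genes chosen by CPM.

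Between the controls of the lines, 4 of 44 genes were higher in P2WT at an unadjusted p under 0.05 (9.09%, beside 10% of all genes) and 0 passed the adjusted threshold. The prostaglandin transporter Slco2a1 was at 1.69 ± 0.377 CPM (SD, n = 4) in P2WT and 0.438 ± 0.155 in P2H2WT. Dpep1, a peptidase that acts on leukotriene D4, was at 3.51 ± 0.565 and 1.46 ± 0.636 CPM. Their log2 fold changes of 1.94 and 1.26 had an edgeR adjusted p of 0.103 each. The prostacyclin synthase Ptgis (1.35) and the prostaglandin F receptor Ptgfr (0.85) were the other two.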

How the data were processed

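RNA of cells described as sorted neutrophils was measured by sequencing in 16 libraries. The authors deposited whole-number counts per Ensembl gene, not normalized, in 1 table per mouse line, per the file headers. The submitters' processing notes name HTSeq and the build mm10, and the aligner, the annotation release and the strand setting are not given in the sources used here, so reads of overlapping genes cannot be assigned. Groups came from the library titles. The 9 genes, the lists and the tests were chosen with earlier results of these data known.

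Symbols, positions and exon lengths came from GENCODE M21 (49326 of 49585 identifiers matched). Genes were filtered with filterByExpr, scaled by TMM and tested with the quasi-likelihood test of edgeR 4.0.16 in R 4.3.3, with Benjamini-Hochberg adjustment over all genes tested, 2-sided, at 0.05. The fits used 8 libraries within a line and 16 otherwise. CPM came from the 16-library fit, and log2 CPM for correlations used a prior count of 2. Correlation p values used 100000 permutations, or all orders for 6 libraries. Those over 16 libraries exchanged the libraries freely across groups and suffixes. DESeq2 1.42.0 was an alternative, as were RLE scaling, other filters, a suffix covariate and leaving out libraries. Simulated counts were used to test the procedure.

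Named genes were the 9 genes, the 3 with the highest mean CPM in each related list, those with an unadjusted p under 0.05 in any of the 4 comparisons of genotypes and lines, and the 3 most alike for each of the 9 with a mean of at least 1 CPM, without predicted genes. Cell type genes were named where their levels stand beside a result.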

Additional observations from a re-analysis of the deposited data

Results flagged for a closer look

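Of 36 combinations of gene and group, 2 held a library far from the other 3, where chance gives about 1 in 20. Alox5 was at 251.8 CPM in P2WT 10 and at 166.4 to 173.2 in the other P2WT libraries. Pla2g4a was at 36.64 CPM in P2KO 6 and at 26.97 to 28.26 in the other P2KO libraries. These libraries also had the highest summed neutrophil genes of their groups, at 61220 and 72490 CPM, and the part of this in the values was not tested.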

How the results depend on the processing

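No paired analysis was possible because the title numbers differ between all groups. In P2KO against P2WT, 6 genes were called, 25 with DESeq2 and 10 in the fit of 16 libraries, and 4 to 6 without single libraries. In P2H2KO against P2H2WT, 10 were called, 39 with DESeq2, and 6 to 9 without single libraries (6 without P2H2WT 13). The difference of the effects gave 0 in each setting. P2WT against P2H2WT gave 32 genes, 9 without a filter, 0 with at least 10 counts in every library, 124 with the suffix and 275 with DESeq2; without single libraries it gave 0 (P2WT 3, 4, 7 and P2H2WT 13 among them) to 182 (P2KO 9). The comparison of m with f gave 23 genes, 58 without a filter, 9 with at least 10 counts, 8 with the title number, 9 and 5 on each line alone and 418 with DESeq2; without single libraries it gave 17 to 1066 (P2KO 9), with 470 without P2KO 6 and 51 without P2H2WT 18. With at least 10 counts in every library Ptgs2 and Ltc4s were not tested.

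Of the 36 log2 fold changes of the 9 genes between genotypes and lines, 19 kept their sign in every setting and 0 were called in any. Ptgs1 in P2KO turned to -0.0062 with RLE, -0.0028 without a filter, -0.0089 with DESeq2 and -0.0086 in the fit of 16 libraries. With the suffix, Ptgs2 in P2KO turned to -0.13, and in P2H2KO Alox5ap turned to -0.020 and Pla2g4a to -0.048. Between suffixes, the title number turned Alox5 to 0.30, Alox5ap to 0.089, Lta4h to 0.049, Ltc4s to 0.053 and Pla2g4a to 0.026; the P2 line alone turned Alox5 to 0.038, Alox5ap to 0.034 and Hpgds to -0.12, and the P2H2 line alone turned Ltc4s to 0.25. The cause was not tested.

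Leaving out single libraries also changed signs. In P2KO the ranges were -0.27 to 0.21 for Alox5, -0.28 to 0.087 for Alox5ap, -0.083 to 0.091 for Lta4h, -0.22 to 0.39 for Ltc4s, -0.29 to 0.29 for Alox15, -0.075 to 0.074 for Ptgs1 and -0.19 to 0.87 for Ptgs2. In P2H2KO they were -0.016 to 0.16 for Alox5ap, -0.055 to 0.75 for Ptgs2 and -0.037 to 0.11 for Pla2g4a. In the difference of the effects they were -0.43 to 0.033 for Alox5, -0.023 to 0.54 for Alox15 and -0.51 to 0.52 for Ptgs2. Between the controls they were -0.24 to 0.046 for Alox5, -0.020 to 0.32 for Ltc4s, -0.11 to 0.023 for Ptgs1 and -0.96 to 0.069 for Ptgs2. Between suffixes they were -0.24 to 0.012 for Alox5 and -0.33 to 0.14 for Ltc4s. Ptgs2 had 3 to 56 counts in a library and Ltc4s 5 to 25.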

Other observations

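Between title suffixes the related genes mostly had negative values. Of 44 tested, 2 were higher and 9 lower in the m libraries at an unadjusted p under 0.05 (25.0%, beside 17.5% of all genes), and 0 passed the adjusted threshold of edgeR. The thromboxane synthase Tbxas1, chosen after its values were seen, stood at -0.28 on the log2 scale (SE 0.071) with an edgeR adjusted p of 0.102. Over all 9 genes and the marker sums, 32 of 108 relations had an adjusted p of Pearson's r under 0.05, and 18 of these also had one of Spearman's rho under 0.05.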
